A study of Mus musculus with 8 samples.

Results

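Lysosomes break down what endocytosis, phagocytosis and autophagy deliver to them. Their enzymes work in an acid lumen that a proton pump, the vacuolar ATPase, maintains, and heavily glycosylated membrane proteins line the inside. Autophagosomes, which need the enzyme Atg7 to form, end by fusing with lysosomes, and TFEB is a transcription factor known to switch on lysosomal genes through a short DNA motif. Phagocytes of a tumor, macrophages and neutrophils among them, are rich in lysosomes or related granules.

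The genes described here are 29 members of this machinery, chosen by symbol from the 19024 gene symbols of the data: hydrolases and their cofactors (Psap, Glb1, Hexa, Gusb, Man2b1, Neu1, Asah1, Lipa, Ppt1, Tpp1, Gaa), other proteins of the lumen (Creg1, Grn), membrane proteins (Lamp1, Lamp2, Cd63, Cd68, Scarb2, Laptm4a, Laptm5), the ion channel Mcoln1, the regulator Tfeb and subunits of the proton pump (Atp6ap1, Atp6v0c, Atp6v0d1, Atp6v0d2, Atp6v1a, Atp6v1b2, Atp6v1h). All 29 were found in all 8 matrices. A list of 89 other lysosomal genes was followed beside them.

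The data are single-cell RNA profiles of 8 subcutaneous MB49 tumors, 4 from Atg7 deleted hosts (libraries 3, 4, 7 and 8) and 4 from wild-type hosts (libraries 1, 2, 5 and 6). MB49 is a mouse urothelial cancer line from a male. The deleted hosts were C57BL/6 mice with Atg7f/f and 1 copy of a tamoxifen-inducible CreERT2 allele, and the wild-type hosts had the same Cre allele with Atg7+/+. Both received tamoxifen for 4 days, were injected with tumor cells 1 week later at 2 tumors per mouse and gave tumors 3 weeks after that. The Cre is not restricted to 1 host cell type, and the injected tumor cells keep their own Atg7. Which tumors shared a mouse is not recorded, so libraries may come from 1 animal and p-values may be too small. A density gradient preceded the libraries and can change which cells are found. Atg7 RNA did not separate the genotypes. It stood at 0.616, 0.266, 0.549 and 0.777 UMIs per 10000 in neutrophil-like cells of deleted libraries 3, 4, 7 and 8, against 0.463, 0.593, 0.184 and 0.435 in wild-type libraries 1, 2, 5 and 6. In monocyte/macrophage-like cells Atg7 stood at 0.0973, 0.144, 0.0388 and 0.121 in deleted libraries, against 0.383, 0.352, 0.165 and 0.0955 in wild-type libraries. The genotypes overlapped in all 7 classes tested (exact permutation tests over libraries, adjusted p of at least 0.600). The floxed exons are not named, and reads from the 5′ end of the RNA may lie outside them, so this does not check the labels.

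Libraries held 4371773 to 25065056 UMIs in deleted hosts and 22224440 to 59235799 UMIs in wild-type hosts. Over all cells the median UMIs per cell averaged 2940 ± 1071 in deleted libraries and 7274 ± 1644 in wild-type libraries (SD, n = 4 each, exact permutation p = 0.0286). Within neutrophil-like cells the medians averaged 1287 ± 471 in deleted and 995 ± 244 in wild-type libraries (exact p = 0.371). The cell barcodes divide the libraries into 2 sets, 1 to 4 and 5 to 8, each with 2 libraries of each genotype. Libraries of the first set shared 0 to 5 barcodes pairwise, those of the second 7 to 46, and libraries of different sets 0 or 1. Several members differed between the sets, so differences that passed are given with their values in both sets. A level is a gene's UMIs per 10000 UMIs of a cell, averaged over 1 library's cells of 1 class. A log2 difference is the Atg7 deleted mean minus the wild-type mean of log2(level + 0.1), tested with limma, and a difference passed at a Benjamini-Hochberg adjusted p under 0.05 over all genes tested in the class.

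In neutrophil-like cells, 3 members were higher in Atg7 deleted hosts: Psap, Creg1 and Scarb2. Each was 3.64-fold to 4.64-fold higher on the log2(level + 0.1) scale, and no level of a deleted library fell within the wild-type range. The class was 1 cluster of 2722 cells led by S100a9, S100a8, G0s2 and Retnlg, with all 11 neutrophil markers detected. It held 138, 165, 39 and 1395 cells in deleted libraries 3, 4, 7 and 8 and 66, 239, 339 and 341 in wild-type libraries 1, 2, 5 and 6. Of 2284 genes tested in it, 15 were higher (0.657% of genes) and 4 were lower (0.175%), together 0.832%, and of 21 members tested 3 were higher and 0 lower. Psap and Creg1 were put on the list knowing that they rose in these neutrophils, so 2 of the 3 calls are a description and nothing is read from the count against these shares. At an unadjusted p under 0.05 the counts were 5 higher and 0 lower, against 12.6% and 4.77% of genes. With a term for the library set the 3 members passed again and no other did, against 1.36% of genes higher and 0.701% lower.

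Psap encodes prosaposin, which is cut into the saposins that help lysosomal enzymes reach sphingolipids (ENSMUSG00000004207, mm10 chromosome 10, 60277627 to 60302597, plus strand). Its level in neutrophil-like cells was 31.5, 42.3, 37.3 and 25.9 in deleted libraries 3, 4, 7 and 8, against 14.5, 8.02, 7.70 and 7.94 in wild-type libraries 1, 2, 5 and 6. The lowest deleted library was above the highest wild-type library. The log2 difference was 1.86 (SE 0.30, limma adjusted p = 0.0286, higher in 4 of 4 deleted libraries), with 1.75 in libraries 1 to 4 and 1.98 in libraries 5 to 8. These levels rested on 517, 1536, 121 and 4639 Psap UMIs in the deleted libraries and 131, 281, 203 and 285 in the wild-type libraries.

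Creg1 encodes a glycoprotein that is secreted and found in endosomes and lysosomes (ENSMUSG00000040713, mm10 chromosome 1, 165763746 to 165775308, plus strand). Its level was 11.2, 12.5, 6.18 and 7.48 in deleted libraries 3, 4, 7 and 8, against 3.97, 1.5, 0.994 and 1.96 in wild-type libraries 1, 2, 5 and 6. The groups did not overlap, and deleted libraries 3 and 4 were the highest. The log2 difference was 2.21 (SE 0.40, limma adjusted p = 0.0332), with 2.23 in libraries 1 to 4 and 2.20 in libraries 5 to 8.

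Scarb2 encodes a lysosomal membrane protein that carries the enzyme glucocerebrosidase to lysosomes (ENSMUSG00000029426, mm10 chromosome 5, 92441314 to 92506833, minus strand). Its level was 2.67, 4.02, 2.27 and 1.79 in deleted libraries 3, 4, 7 and 8, against 0.550, 0.870, 0.604 and 0.376 in wild-type libraries 1, 2, 5 and 6. Again the groups did not overlap. The log2 difference was 1.98 (SE 0.34, limma adjusted p = 0.0286), with 2.09 in libraries 1 to 4 and 1.87 in libraries 5 to 8. Deleted library 7 gave 8 Scarb2 UMIs and wild-type library 1 gave 6, so these values are coarse. Cells with a Scarb2 UMI made up 17.9% to 46.1% of the class in deleted libraries and 3.81% to 10.0% in wild-type libraries, so Scarb2 met the 5% filter in all 4 deleted but 2 of 4 wild-type libraries and entered the test through the group where it is high.

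**Figure D1:**
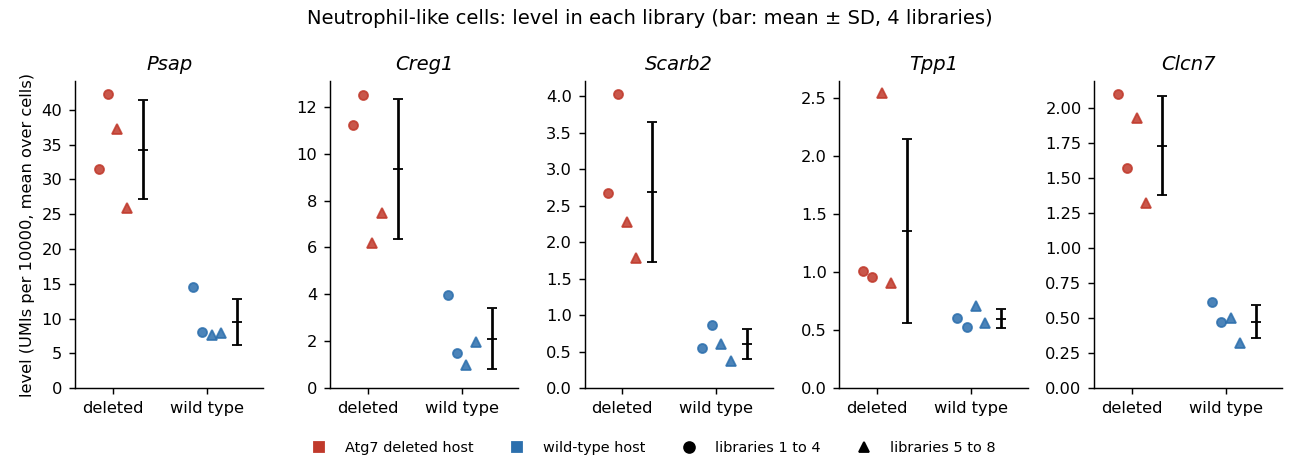
Levels of 5 lysosomal genes in neutrophil-like cells (vertical axes: UMIs per 10000, mean over cells), one point per library, with Atg7 deleted hosts left of wild-type hosts. Black bars give the mean and SD of 4 libraries, and point shapes mark the 2 library sets. The genes shown are the 4 of 21 tested members with groups apart and higher (7.97% of all genes were), and Clcn7, which passed. By this choice no deleted library lies within the wild-type range for any of the 5 genes. Psap ran from 25.9 to 42.3 in deleted libraries and from 7.70 to 14.5 in wild-type libraries.

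Among the 89 other lysosomal genes, 39 were tested in neutrophil-like cells and 1 rose, Clcn7, a chloride-proton exchanger of the lysosomal membrane (ENSMUSG00000036636, mm10 chromosome 17, 25133391 to 25162104). Its level was 2.1, 1.57, 1.93 and 1.32 in deleted libraries 3, 4, 7 and 8, against 0.614, 0.469, 0.498 and 0.321 in wild-type libraries 1, 2, 5 and 6, with no overlap. The log2 difference was 1.67 (SE 0.31, limma adjusted p = 0.0332), with 1.59 in libraries 1 to 4 and 1.76 in libraries 5 to 8. Like Scarb2, Clcn7 met the 5% filter in 4 deleted and 2 wild-type libraries. None of the other 38 passed.

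These calls changed when libraries or cells were left out. Without wild-type library 2, deleted library 3 or deleted library 4, none of Psap, Creg1 and Scarb2 passed. Nor did they without wild-type library 5 or wild-type library 6 (limma adjusted p 0.0620 to 0.131 over these fits). Of all genes, 1 of 2642, 0 of 2373, 0 of 2309, 0 of 2729 and 2 of 2716 passed there, in the same order. Scarb2 did not pass without wild-type library 1 (adjusted p = 0.0755), where 2 of 2576 genes passed. All log2 differences of Psap, Creg1 and Scarb2 without 1 library lay between 1.75 and 2.57. With cells of under 500 genes removed, deleted library 7 kept 6 neutrophil-like cells and was dropped, and 0 of 3408 genes passed (log2 differences 1.36 for Psap, 2.24 for Creg1 and 1.59 for Scarb2, adjusted p 0.434, 0.0737 and 0.431).

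The promoters of these genes are shown because each gene was higher in neutrophil-like cells of deleted hosts. Lysosomal genes are known targets of TFEB, whose motif is built on the palindrome CACGTG. A part of TFEB in these differences was not tested. The windows are RefSeq's for GRCm38.p6, from 250 bases before to 50 after an annotated start, written 5′ to 3′ on the gene's strand; Scarb2 and Clcn7 were added after their values were seen. The 300 bases of Psap (chr10:60277378-60277677, plus strand), Creg1 (chr1:165763508-165763807, plus strand) and Scarb2 (chr5:92505608-92505907, minus strand) hold no CACGTG, and neither does a second Psap window. The Scarb2 window lies inside the gene as given above, which starts at 92506833 on the minus strand. The sequence before that start was not searched.

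Psap: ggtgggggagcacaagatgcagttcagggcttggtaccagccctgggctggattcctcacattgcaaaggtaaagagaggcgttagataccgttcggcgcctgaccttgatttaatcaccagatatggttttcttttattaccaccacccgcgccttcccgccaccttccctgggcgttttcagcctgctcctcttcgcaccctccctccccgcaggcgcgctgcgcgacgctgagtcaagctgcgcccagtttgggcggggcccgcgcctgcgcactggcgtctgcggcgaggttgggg

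Creg1: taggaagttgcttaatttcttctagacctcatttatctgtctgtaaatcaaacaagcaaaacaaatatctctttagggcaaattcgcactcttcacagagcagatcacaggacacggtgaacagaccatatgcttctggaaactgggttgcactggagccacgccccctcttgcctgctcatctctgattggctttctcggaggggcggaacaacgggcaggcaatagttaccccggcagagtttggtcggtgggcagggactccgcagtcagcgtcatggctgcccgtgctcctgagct

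Scarb2: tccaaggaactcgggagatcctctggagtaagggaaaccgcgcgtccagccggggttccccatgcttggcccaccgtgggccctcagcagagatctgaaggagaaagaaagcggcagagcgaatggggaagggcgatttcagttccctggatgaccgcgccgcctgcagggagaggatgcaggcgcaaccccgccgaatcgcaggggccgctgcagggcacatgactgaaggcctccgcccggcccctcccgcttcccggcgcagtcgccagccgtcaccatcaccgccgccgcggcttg

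Windows were found for 25 of the 29 members, and 6 of the 25 hold CACGTG (24.0%): Lamp1, Glb1, Gaa, Mcoln1, Atp6v0d1 and Atp6v1a. Of the 89 other lysosomal genes 70 had a window and 21 of these hold it (30%), Clcn7 among them, against 8.09% of the 27025 genes of the table. CACGTG reads the same on both strands. The longer palindrome TCACGTGA, which contains it, is in 3 members (Mcoln1, Atp6v0d1 and Atp6v1a) and in 1.12% of all genes. In Mcoln1 it lies at a later CACGTG of the window, which the Mcoln1 line below does not reach. The full 10-base palindrome GTCACGTGAC is in 0 of the 25 and in 0.370% of all genes. Of the 7 genes whose lines follow, Clcn7 passed in neutrophil-like cells. The 6 members did not pass in any class where they were tested, with or without a term for the library set, and Glb1, Gaa and Mcoln1 were not tested in neutrophil-like cells. A match of letters does not show a binding site. Capitals mark CACGTG, and each line is 40 bases around the first match.

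Lamp1, chr8:13159083-13159122, plus strand: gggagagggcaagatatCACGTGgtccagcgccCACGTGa

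Mcoln1, chr8:3500431-3500470, plus strand: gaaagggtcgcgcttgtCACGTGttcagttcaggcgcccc

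Atp6v0d1, chr8:105566045-105566084, minus strand: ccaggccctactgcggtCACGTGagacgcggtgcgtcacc

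Glb1, chr9:114401013-114401052, plus strand: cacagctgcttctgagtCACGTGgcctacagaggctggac

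Gaa, chr11:119267806-119267845, plus strand: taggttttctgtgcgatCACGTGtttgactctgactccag

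Atp6v1a, chr16:44139368-44139407, minus strand: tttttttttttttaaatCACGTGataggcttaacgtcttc

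Clcn7, chr17:25133359-25133398, plus strand: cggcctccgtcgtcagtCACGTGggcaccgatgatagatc

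None of the other hydrolases passed in neutrophil-like cells. Tpp1, a tripeptidyl peptidase, stood at 1.01, 0.954, 2.54 and 0.910 in deleted libraries 3, 4, 7 and 8, against 0.601, 0.526, 0.707 and 0.564 in wild-type libraries 1, 2, 5 and 6. The groups did not overlap, with library 7 far above the rest on 10 UMIs, and the difference did not pass (log2 0.93, SE 0.36, limma adjusted p = 0.236). It was the fourth of 21 tested members with groups apart and higher in deleted hosts, against 7.97% of all genes, and 0 members were apart and lower, against 3.02%. Hexa, Neu1 and Ppt1 overlapped (log2 differences 0.52, 0.23 and -0.21). The other tested members also overlapped, with log2 differences from -0.78 for Lamp2 to 1.13 for Atp6ap1 (adjusted p = 0.152). Of the 21, 16 had a positive difference (76.2%), against 60.1% of all genes tested, and their median was 0.46 against 0.15. Psap, Creg1 and Scarb2 are counted among the members apart and higher and in these figures. Psap and Creg1 were listed knowing that they rose here, and Scarb2 met the filter through the deleted libraries. Nothing is therefore read from these figures against those of all genes.

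The 8 members Glb1, Gusb, Man2b1, Asah1, Lipa, Gaa, Mcoln1 and Atp6v0d2 were too rare in neutrophil-like cells to be tested, a filter that a gene high in 1 group can pass more easily. Lipa, the lysosomal acid lipase, is named after its values were seen. It stood at 2.60, 2.16, 0.450 and 1.12 in deleted libraries 3, 4, 7 and 8, against 0.30, 0.143, 0.186 and 0.350 in wild-type libraries 1, 2, 5 and 6. Mean levels of the other 7 ran from 0.0301 for Glb1 to 0.650 for Atp6v0d2 in deleted libraries and from 0.00483 for Glb1 to 0.512 for Atp6v0d2 in wild-type libraries.

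Psap and Creg1 are also high in macrophages, so macrophage RNA among neutrophil-like cells was measured. Of 13 monocyte/macrophage markers 8 had a higher mean in deleted libraries, and their summed level in neutrophil-like cells was 22.4, 18.7, 3.43 and 7.78 in deleted libraries 3, 4, 7 and 8, against 6.16, 11.4, 5.26 and 8.22 in wild-type libraries 1, 2, 5 and 6. No marker was at 0 in all libraries. Deleted library 7, with Psap at 37.3, had 0 UMIs of C1qa, C1qb, C1qc, Apoe, Mrc1, Adgre1, Ms4a7 and Fcgr1 in its 39 cells, which allows up to 0.883 UMIs per 10000 for each (counting error only). Other markers of the list were present there: Lyz2 stood at 1.02, and Csf1r, the receptor of a macrophage growth factor, at 1.58. Csf1r was among the 15 genes that rose (log2 1.89, SE 0.39, limma adjusted p = 0.0493), at 1.33, 1.39, 1.58 and 0.630 in deleted libraries 3, 4, 7 and 8, against 0.277, 0.292, 0.287 and 0.141 in wild-type libraries 1, 2, 5 and 6. The level of Psap in neutrophil-like cells was 30.3% to 92.2% of its level in macrophage-like cells of the same library in deleted hosts and 12.5% to 18.7% in wild-type hosts. For C1qa the same share was 0% to 4.66% in deleted hosts and 0.846% to 7.36% in wild-type hosts, and for Apoe 0% to 10.3% and 2.43% to 6.11%. Over neutrophil-like cells with no UMI of 9 macrophage markers, the 8 just named at 0 among them, Psap stood at 26.2, 34.3, 37.3 and 25.7 in deleted libraries and 14, 6.81, 7.53 and 7.64 in wild-type libraries (log2 difference 1.81, adjusted p = 0.0249). In the same cells the difference of Creg1 was 2.21 (adjusted p = 0.0249) and that of Scarb2 was 1.96 (adjusted p = 0.0593). This selection was added after the data were seen and does not use Csf1r or Lyz2. Psap and Creg1 were listed knowing that they rose in these neutrophils, so their values here are a description. At this depth a cell with no UMI of these markers can still hold macrophage RNA. The part of macrophage RNA in these values was therefore not tested. It kept 42, 45, 39 and 1216 cells in deleted libraries 3, 4, 7 and 8, and 56, 184, 315 and 314 in wild-type libraries 1, 2, 5 and 6.

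Other markers moved with the genotype too. The summed level of the 11 neutrophil markers was 371, 325, 341 and 617 in deleted libraries 3, 4, 7 and 8, against 569, 655, 864 and 627 in wild-type libraries 1, 2, 5 and 6, and 1 of the 11 had a higher mean in deleted hosts. The summed level of 10 fibroblast markers was 31.9, 9.37, 0.242 and 1.5 in deleted libraries, against 2.61, 2.44, 1.35 and 0.485 in wild-type libraries, and 9 of the 10 had a higher mean in deleted hosts. The part of these differences in the results on Psap, Creg1 and Scarb2 was not tested.

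In monocyte/macrophage-like cells, the class where most members were highest, 0 of 27 tested members passed with limma, and 0 of 6041 genes did (0% of genes). At an unadjusted p under 0.05, 8 members were higher and 1 was lower, against 6.52% and 4.27% of all genes. Of the 27, 22 had a positive difference (81.5%, against 56.6% of all genes), with a median of 0.56 against 0.06. The genotypes drew on different clusters of the class. Deleted hosts gave most cells of clusters 2, 5, 11 and 14 (1189, 1128, 1139 and 772 cells, against 225, 113, 6 and 61 in wild-type hosts), and wild-type hosts most of clusters 4 and 7 (149 and 270 cells in deleted hosts, against 1092 and 634 in wild-type hosts). Markers moved as well. The 13 monocyte/macrophage markers summed to 115.6 to 243 in deleted and 78.2 to 117 in wild-type libraries, with 10 of 13 higher on average in deleted hosts. The 10 fibroblast markers summed to 2.80 to 68.3 in deleted and 0.899 to 6.62 in wild-type libraries, with 10 of 10 higher, and the 11 neutrophil markers to 7.50 to 10.8 in deleted and 11.2 to 25.0 in wild-type libraries, with 3 of 11 higher. Their part in the macrophage-like values was not tested. A change within macrophages and a change in which macrophages were present cannot be told apart here.

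The 4 members Tpp1, Glb1, Asah1 and Gusb were higher in every deleted library than in every wild-type library, as were 3.97% of all genes, and Cd68 was lower in every one, as were 2.88%. Tpp1 stood at 1.6, 1.3, 2.26 and 1.92 in deleted libraries 3, 4, 7 and 8, against 1.21, 1.02, 0.789 and 0.757 in wild-type libraries 1, 2, 5 and 6 (log2 difference 0.84, SE 0.25, limma adjusted p = 0.285). Glb1, the lysosomal beta-galactosidase, stood at 0.437, 0.431, 0.327 and 0.355 in deleted libraries, against 0.270, 0.190, 0.135 and 0.173 in wild-type libraries (log2 0.75, SE 0.23, adjusted p = 0.294). Cd68, a LAMP-family glycoprotein much used as a macrophage stain, stood at 1.83, 1.84, 1.17 and 1.98 in deleted libraries, against 3.13, 5.61, 2.15 and 3.52 in wild-type libraries (log2 -0.98, SE 0.31, adjusted p = 0.296). None of these 3 passed. Asah1, acid ceramidase, and Gusb, beta-glucuronidase, differed by 0.74 and 0.72. By C1q level, the difference of Gusb was -0.51 in C1q-high and 0.87 in C1q-low clusters and that of Tpp1 was 0.38 in C1q-high and -0.25 in C1q-low clusters, none passing.

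The library sets differed strongly in this class, and a fit with a term for the set called more genes. With it 5 of 27 members rose (Creg1, Scarb2, Neu1, Grn and Gusb) and 0 fell, against 2.23% of all genes higher and 1.46% lower. Scarb2 stood at 2.38, 2.04, 0.621 and 1.05 in deleted libraries 3, 4, 7 and 8, against 0.932, 0.918, 0.511 and 0.285 in wild-type libraries 1, 2, 5 and 6. Deleted library 7 was below both wild-type libraries of the other set and above both of its own. Its log2 difference was 1.17 in libraries 1 to 4 and 0.91 in libraries 5 to 8 (1.04 in both, limma adjusted p = 0.0304 with the set term and 0.414 without it). Creg1 stood at 9.72, 12.9, 3.23 and 5.36 in deleted libraries, against 7.03, 5.77, 1.37 and 1.93 in wild-type libraries, and was again higher in deleted hosts within each set (log2 1.05, with 0.81 in libraries 1 to 4 and 1.30 in libraries 5 to 8, adjusted p = 0.0311 with the term and 0.532 without).

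Grn encodes progranulin, a secreted protein cut into granulins in lysosomes. It stood at 32.9, 25.9, 4.77 and 7.78 in deleted libraries 3, 4, 7 and 8, against 15.5, 13.9, 3.01 and 4.06 in wild-type libraries 1, 2, 5 and 6. Both genotypes were lower in libraries 5 to 8, and deleted hosts were higher within each set (log2 0.88, with 0.98 in libraries 1 to 4 and 0.78 in libraries 5 to 8, limma adjusted p = 0.0421 with the term and 0.692 without). Neu1, a sialidase, stood at 2.35, 2.17, 1.19 and 0.959 in deleted libraries, against 1.46, 1.00, 0.671 and 0.433 in wild-type libraries (log2 0.85, with 0.84 and 0.87 in the sets, adjusted p = 0.0418 with the term and 0.449 without). Gusb stood at 1.21, 1.11, 1.34 and 1.19 in deleted libraries, against 0.706, 0.815, 0.608 and 0.664 in wild-type libraries (log2 0.72, with 0.55 and 0.89 in the sets, adjusted p = 0.0491 with the term and 0.263 without). Of the other lysosomal genes 75 were tested here, with 0 passing without the term. With it the hydrolases Sgsh, Ctsl, Galc and Ctss were among those that rose (log2 differences 1.75, 1.29, 0.99 and 0.91).

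**Figure D2:**
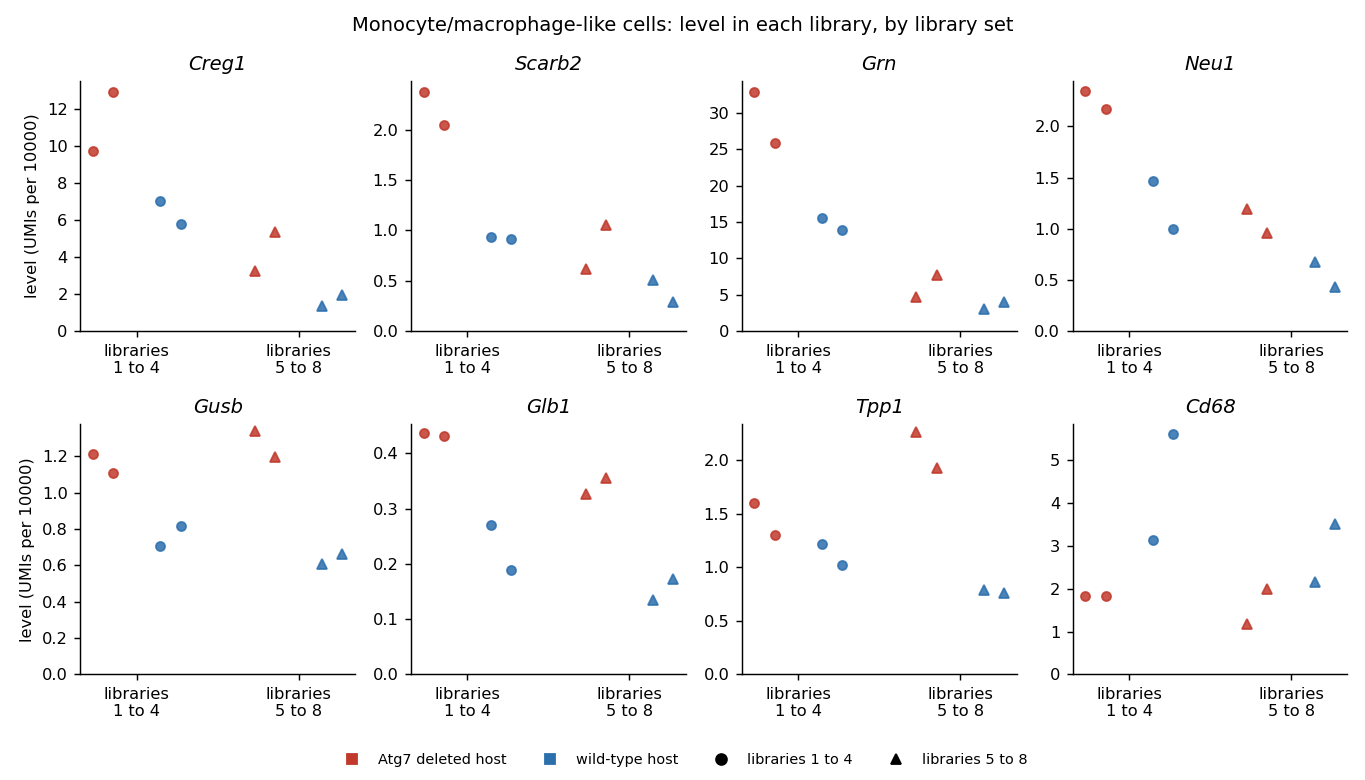
Levels of 8 members in monocyte/macrophage-like cells (vertical axes: UMIs per 10000, mean over cells), one point per library, with the libraries split by set and Atg7 deleted hosts left of wild-type hosts within each set. Creg1, Scarb2, Grn, Neu1, Gusb, Glb1 and Tpp1 were higher in both deleted libraries of a set than in both wild-type libraries of that set. Cd68 was lower. Grn ran from 4.77 to 32.9 over the deleted libraries, with libraries 7 and 8 below libraries 3 and 4.

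Psap in monocyte/macrophage-like cells stood at 104, 127, 40.4 and 84.0 in deleted libraries 3, 4, 7 and 8, against 77.7, 63.9, 55.7 and 44.0 in wild-type libraries 1, 2, 5 and 6. Deleted library 7 was below every wild-type library, and the difference did not pass (log2 0.47, SE 0.40, limma adjusted p = 0.721; 0.315 with the set term). Across the 6 clusters of the class Psap ran from 43.3 in cluster 7, led by Ccl24 and Plac8, to 131 in cluster 2, led by Mmp12 and Rnf128. Grn ran from 3.6 in cluster 7 to 40.0 in cluster 5, which is led by Cbr2 and Clec10a. Each of clusters 2, 5, 11 and 14 was mostly from 1 library, so cluster and library cannot be separated.

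Whether the host difference was larger in neutrophil-like than in macrophage-like cells was tested within libraries. The log2 difference of Psap was larger by 1.39 in neutrophil-like cells (SE 0.46, limma adjusted p = 0.174), that of Creg1 by 1.16 (SE 0.42, adjusted p = 0.219) and that of Scarb2 by 0.94 (SE 0.39, adjusted p = 0.259). Psap and Creg1 were listed knowing that they rose in neutrophils, and Scarb2 met the filter there through the deleted libraries. The values of these 3 genes are therefore a description. None of 20 members passed, and 3 of 2183 genes did (0.137% of genes). At an unadjusted p under 0.05 there were 5 members, against 16.8% of all genes. Lamp2 and Cd63 went the other way, by -1.20 and -1.10 (adjusted p = 0.219 and 0.290).

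**Figure D3:**
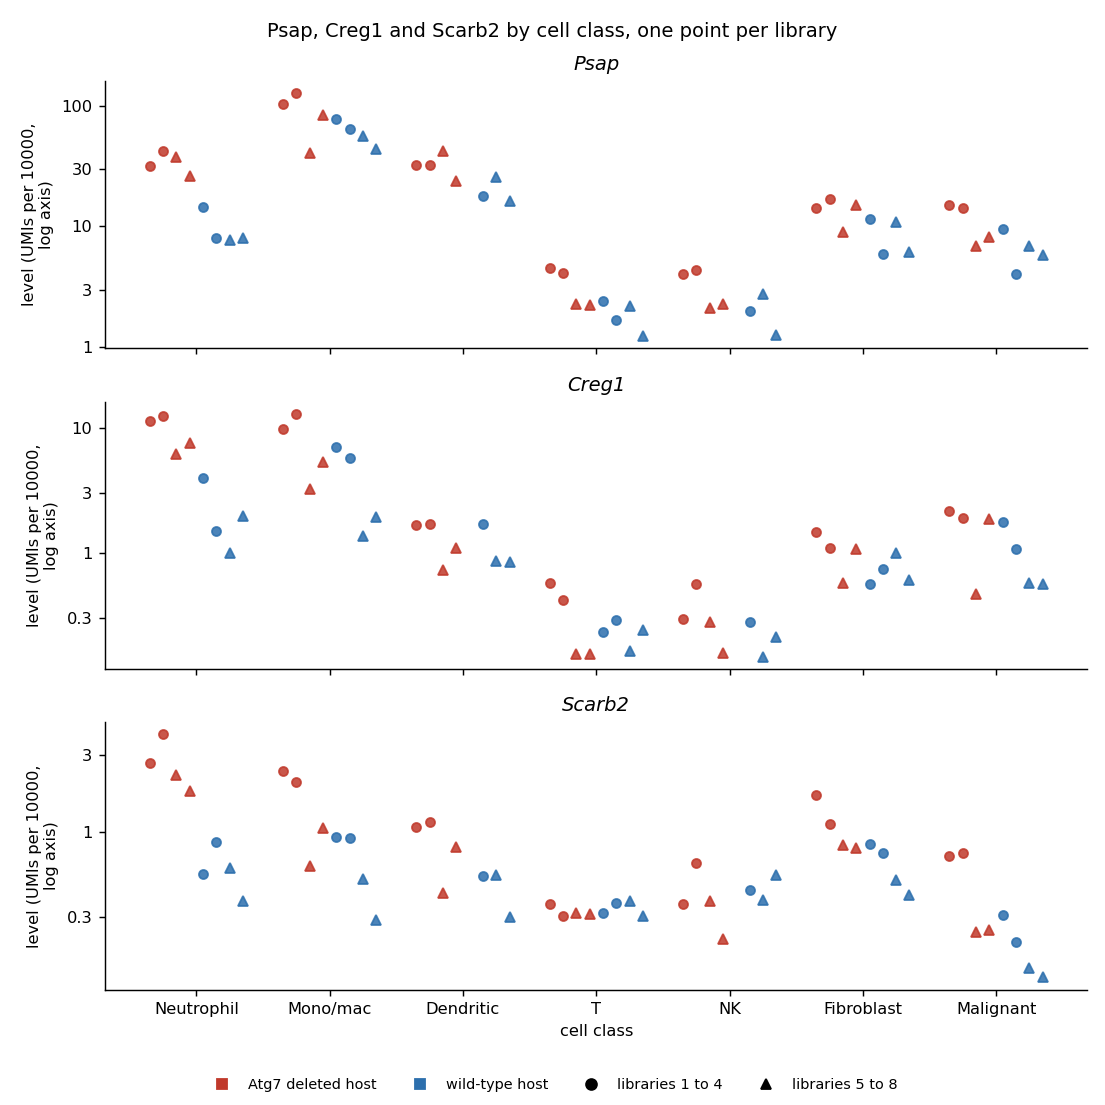
Levels of Psap, Creg1 and Scarb2 in 7 cell classes (vertical axes: UMIs per 10000 on a log axis), one point per library, with Atg7 deleted hosts left of wild-type hosts in each class. The genotypes are apart in neutrophil-like cells for all 3 genes and overlap for all 3 in each of the other 6 classes; Psap in T-like cells ran from 2.23 to 4.49 in deleted libraries and from 1.23 to 2.42 in wild-type libraries.

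In the other 5 classes no member passed with limma. Of all genes, 0.105% were higher and 0.145% lower in dendritic-like, 1.05% and 0.437% in T-like, 0% and 0.0768% in NK-like, 0.0871% and 0.0218% in fibroblast-like, and 0.0632% and 0.516% in malignant-like cells. At an unadjusted p under 0.05, 4 of 28 tested members were higher and 2 lower in dendritic-like cells (7.17% and 3.56% of genes), and 1 of 22 was higher and 0 lower in T-like cells (11.8% and 4.95%). The counts were 1 and 0 of 24 in NK-like cells (3.3% and 1.64%), 2 and 0 of 26 in fibroblast-like cells (6.64% and 3.61%) and 3 and 1 of 28 in malignant-like cells (2.45% and 9.42%). A positive difference was found for 20 of 28 members in malignant-like cells, against 42% of genes, and for 21 of 26 in fibroblast-like cells, against 56.7%. It was found for 18 of 28 in dendritic-like (59.7% of genes), 15 of 22 in T-like (60.1%) and 12 of 24 in NK-like cells (55.6%). Markers of other cells moved too. All 13 monocyte/macrophage markers were higher on average in deleted hosts in malignant-like cells, with sums of 9.15, 6.72, 0.233 and 3.90 in deleted libraries 3, 4, 7 and 8, against 1.40, 1.19, 0.558 and 0.809 in wild-type libraries 1, 2, 5 and 6. All 13 were also higher in fibroblast-like cells, with sums of 1.84 to 19.9 in deleted and 1.94 to 9.08 in wild-type libraries. All 10 fibroblast markers were higher in malignant-like cells, with sums of 2.26 to 26.4 in deleted and 3.23 to 5.08 in wild-type libraries. Their part in the members' values was not tested. Psap had a positive log2 difference in each: 0.72 in dendritic-like, 0.75 in T-like, 0.65 in NK-like, 0.69 in fibroblast-like and 0.73 in malignant-like cells. Creg1, Grn, Atp6v1a and Atp6v1h were also positive in all 7 classes, which share their libraries and are not independent. Within a library set the sign did not always hold. Grn differed by -0.28 in neutrophil-like cells of libraries 5 to 8. In dendritic-like cells Creg1 stood at 1.65 and 1.69 in deleted libraries 3 and 4, against 1.70 in wild-type library 2. The dendritic-like and NK-like differences lack wild-type library 1.

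In T-like cells Psap stood at 4.49, 4.13, 2.28 and 2.23 in deleted libraries 3, 4, 7 and 8, against 2.42, 1.66, 2.20 and 1.23 in wild-type libraries 1, 2, 5 and 6. The genotypes overlapped (SE 0.29, limma adjusted p = 0.210, and 0.0468 with the set term). Cd63, a tetraspanin of late endosomes, stood at 0.594, 0.351, 0 and 0.0619 in deleted libraries and 1.20, 1.14, 0.0878 and 0.107 in wild-type libraries. It fell with the set term (log2 -0.91, adjusted p = 0.0409), which called 4.43% of genes higher and 1.81% lower in T-like cells. Of 13 monocyte/macrophage markers 12 had a higher mean in T-like cells of deleted hosts, with summed levels of 3.76 to 17.7 in deleted and 8.57 to 19.2 in wild-type libraries. The 10 fibroblast markers were all higher on average in deleted hosts, with sums of 0.450 to 18.5 in deleted and 0.0488 to 0.615 in wild-type libraries. The 10 NK markers summed to 1.46 to 6.59 in deleted and 7.77 to 19.0 in wild-type libraries, with no overlap. In the same class Cd4 rose (log2 1.98, adjusted p = 0.00311), while Cd8a fell (log2 -2.27, adjusted p = 0.0130) and Cd8b1 fell (log2 -1.99, adjusted p = 0.0237), so the genotypes differed in markers of T cell subsets. The part of these markers in the T-like values of Psap and Cd63 was not tested.

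A few members had groups apart in 1 of these classes without passing. Gusb and Man2b1 were higher in dendritic-like cells (log2 0.63 and 0.69, limma adjusted p = 0.448 and 0.418), against 6.94% of genes apart and higher, and 0 members were apart and lower there, against 3.36%. Atp6v1h was higher in T-like cells (0.36, adjusted p = 0.439, against 6.89%, with 0 lower against 2.91%), Lamp2 in fibroblast-like cells (0.60, adjusted p = 0.514, against 3.55%) and Tpp1 in malignant-like cells (0.69, adjusted p = 0.337, against 1.12%). Atp6ap1 was lower in NK-like cells (-0.70, adjusted p = 0.914, against 2.16%). Tfeb was lower in malignant-like cells at 0, 0, 0.0238 and 0.0253 in deleted libraries, against 0.0644, 0.0426, 0.0714 and 0.0748 in wild-type libraries (-0.55, SE 0.15, adjusted p = 0.141, against 7.61%). Malignant-like cells numbered 27 to 76 in deleted libraries and 1091 to 3967 in wild-type libraries, so zeros there rest on few cells.

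**Figure D4:**
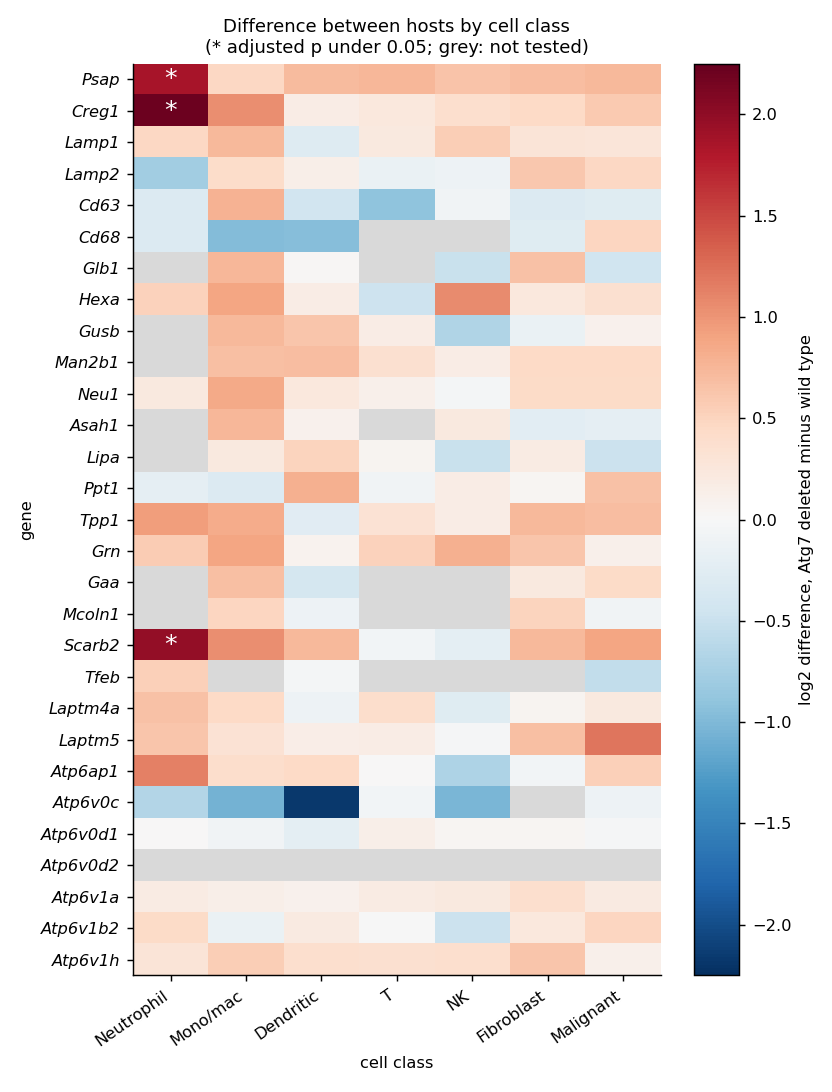
Log2 difference between Atg7 deleted and wild-type hosts (color, deleted minus wild type) for the 29 members (rows) in 7 cell classes (columns); grey cells were not tested and stars mark an adjusted p under 0.05 in the fit without a library-set term. The 3 stars are Psap, Creg1 and Scarb2 in neutrophil-like cells, at 1.86, 2.21 and 1.98.

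Across cell classes, with libraries of both genotypes together, monocyte/macrophage-like cells had the highest mean level of 15 members, neutrophil-like cells of 8, fibroblast-like cells of 5 and dendritic-like cells of 1. Some of these places are close. Mcoln1 was highest in fibroblast-like cells in 1 of 8 libraries and Ppt1 in neutrophil-like cells in 3 of 8. Lamp2 was highest in monocyte/macrophage-like cells in 3 of 8 and Creg1 in 4 of 8. Psap averaged 74.6 ± 29.9 in monocyte/macrophage-like cells (SD, n = 8), then 27.1 ± 9.15 in dendritic-like (n = 7), 21.9 ± 14.2 in neutrophil-like (n = 8), 11.2 ± 4.01 in fibroblast-like (n = 8), 8.83 ± 3.93 in malignant-like (n = 8), 2.69 ± 1.12 in NK-like (n = 7) and 2.58 ± 1.14 in T-like cells (n = 8). Monocyte/macrophage-like cells were highest in 7 of 8 libraries, and NK-like and T-like cells lay within each other's spread. The place of neutrophil-like cells differed by genotype. In deleted libraries Psap averaged 34.2 ± 7.11 in neutrophil-like and 32.6 ± 7.52 in dendritic-like cells (SD, n = 4 each), within their spread. In wild-type libraries it averaged 9.54 ± 3.30 in neutrophil-like (n = 4) and 19.8 ± 5.06 in dendritic-like cells (n = 3), and dendritic-like cells were higher in each of the 3 libraries with both. Creg1 averaged 9.35 ± 3.0 in neutrophil-like and 7.81 ± 4.35 in monocyte/macrophage-like cells of deleted libraries, and 2.11 ± 1.31 and 4.03 ± 2.80 in the same classes of wild-type libraries, within the spread across libraries in both genotypes. Within a library its neutrophil-like level was 96.8% to 191.5% of the macrophage-like level in deleted hosts. In wild-type hosts this share was 26.0% to 101.6%. Scarb2 averaged 2.69 ± 0.961 in neutrophil-like and 1.52 ± 0.823 in monocyte/macrophage-like cells of deleted libraries, and was higher in neutrophil-like cells in 4 of 4. In wild-type libraries it averaged 0.600 ± 0.204 in neutrophil-like and 0.662 ± 0.318 in monocyte/macrophage-like cells, so its highest class over all libraries is set by the deleted ones.

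The gene families were not uniform. In the LAMP family, Lamp1, the main glycoprotein of the lysosomal membrane, was highest in macrophage-like cells in 8 of 8 libraries, at 13.5, 10.2, 9.07 and 14.6 in deleted libraries 3, 4, 7 and 8 and 8.81, 9.34, 5.65 and 5.01 in wild-type libraries 1, 2, 5 and 6. Lamp2, needed for autophagosomes to mature, was close in macrophage-like (5.27, 4.50, 4.00 and 3.87 in deleted, 3.92, 3.95, 3.11 and 2.33 in wild-type libraries), neutrophil-like (3.38 ± 1.52, SD, n = 8) and fibroblast-like cells (3.19 ± 0.953, n = 8). Cd68 was highest in neutrophil-like cells in 6 of 8 libraries, at 2.35, 2.96, 3.95 and 2.45 in deleted and 5.27, 3.65, 2.41 and 3.47 in wild-type libraries, while NK-like cells averaged 0.0474.

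In the LAPTM family, Laptm5, a lysosomal protein of blood cells, averaged 9.65 to 15.8 in the 5 immune classes and 0.361 ± 0.403 in malignant-like cells (SD, n = 8). In macrophage-like cells it stood at 19.9, 18.3, 15.8 and 15.8 in deleted libraries and 13.6, 14.1, 17 and 11.5 in wild-type libraries. Laptm4a was highest in fibroblast-like cells in 8 of 8 libraries, at 4.48, 5.20, 3.77 and 3.74 in deleted and 5.47, 3.76, 3.25 and 4.19 in wild-type libraries. Its mean there was 2.52 times that of the next class. Cd63 was also highest in fibroblast-like cells (12.6 ± 6.69), and so was Gaa, acid alpha-glucosidase (0.947 ± 0.350).

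The proton pump subunits split between the phagocyte classes. Atp6v1a, the catalytic subunit, was highest in neutrophil-like cells in 8 of 8 libraries, at 4.15, 4.30, 6.45 and 5.38 in deleted libraries 3, 4, 7 and 8 and 4.86, 3.27, 6.74 and 3.47 in wild-type libraries 1, 2, 5 and 6. Atp6v1b2 was highest in macrophage-like cells in 7 of 8, at 3.29, 2.9, 4.27 and 3.35 in deleted and 4.57, 2.84, 5.21 and 3.13 in wild-type libraries. Atp6v1h stood there at 0.958, 1.19, 2.247 and 1.54 in deleted and 1.40, 1.06, 1.03 and 0.462 in wild-type libraries, and Atp6ap1 at 3.21, 2.92, 1.69 and 2.06 in deleted and 2.12, 1.69, 1.89 and 1.52 in wild-type libraries. None of these 4 subunits passed between hosts in either class.

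The 2 genes for the pump's d subunit differed in where they were found. Atp6v0d1 was present in all classes, at 2.52, 2.66, 3.0 and 2.03 in neutrophil-like cells of deleted libraries and 2.77, 2.77, 2.255 and 2.30 of wild-type libraries. Atp6v0d2, best known from osteoclasts, was found in neutrophil-like cells at 0.501, 0.995, 0.281 and 0.822 in deleted and 0.410, 0.869, 0.203 and 0.565 in wild-type libraries. It averaged 0.240 ± 0.253 in macrophage-like cells and at most 0.0113 in the other classes, and it was not tested in any class. Tfeb itself was highest in neutrophil-like cells in 7 of 8 libraries, at 0.156, 0.281, 1.77 and 0.388 in deleted and 0.433, 0.158, 0.224 and 0.365 in wild-type libraries (log2 difference 0.53, SE 0.61, limma adjusted p = 0.71).

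**Figure D5:**
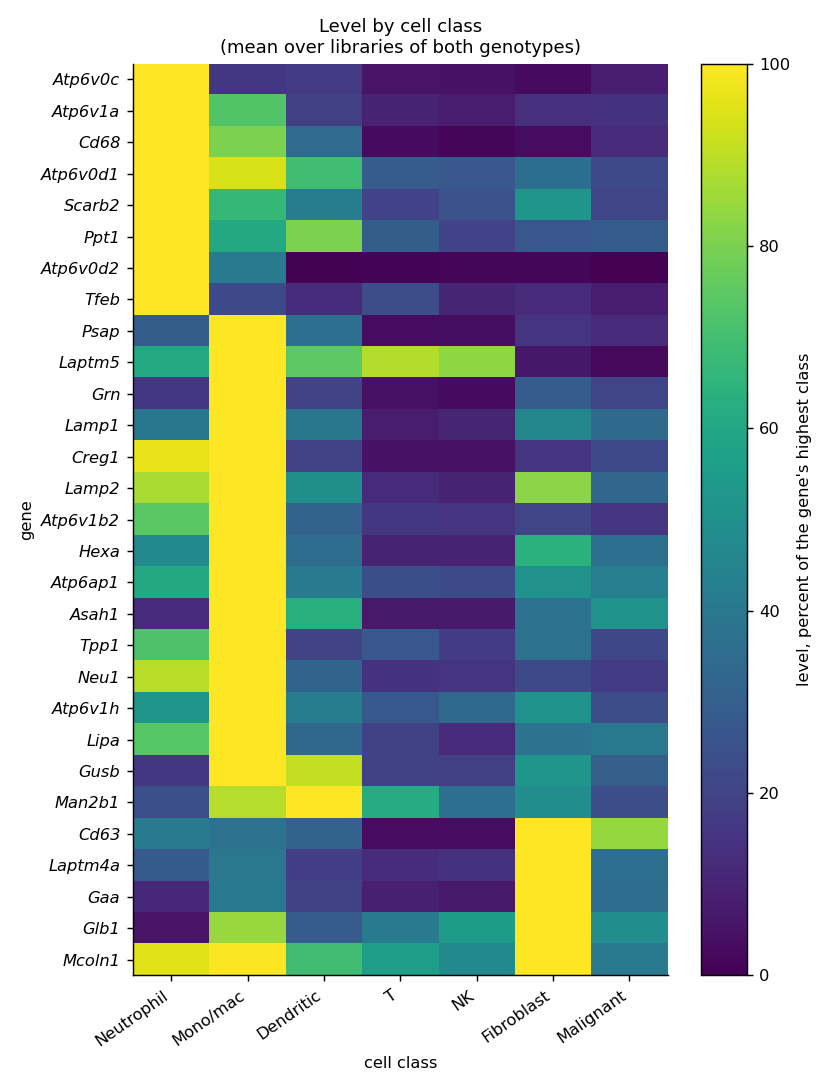
Mean level of each of the 29 members (rows) in 7 cell classes (columns), averaged over the libraries of both genotypes and shown as a percent of the gene's highest class. Rows are grouped by the class where the gene's mean was highest, for some genes by a small margin: 8 genes in neutrophil-like, 15 in monocyte/macrophage-like, 1 in dendritic-like and 5 in fibroblast-like cells.

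The place of Atp6v0c, the pump's proteolipid subunit, rests on libraries 5 to 8. It stood at 10.6 and 18.9 in deleted libraries 7 and 8 and 11.1 and 46.6 in wild-type libraries 5 and 6 in neutrophil-like cells, against 0 and 0.297 in deleted libraries 3 and 4 and 0.0894 and 0.410 in wild-type libraries 1 and 2. In macrophage-like cells it ran from 0.831 to 9.78 in libraries 5 to 8 and from 0.0322 to 0.0823 in libraries 1 to 4. Grn showed the reverse, lower in every library of 5 to 8 than in every library of 1 to 4 that was measured, in all 7 classes. In neutrophil-like cells 1 member was apart and higher in libraries 5 to 8 (4.9% of genes) and 2 were apart and lower (8.58% of genes). In macrophage-like cells the counts were 1 (7.07% of genes) and 4 (18.2% of genes). Each set holds 2 libraries of each genotype, except in the dendritic-like and NK-like tests. Those lack wild-type library 1, so there the sets partly align with the host comparison. No source used here says what sets them apart.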

How the data were processed

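Single-cell libraries of 8 tumors were analysed, 4 per host genotype. The authors deposited natural log values, the logarithm of 1 plus a gene's UMIs per 10000 UMIs of its cell; the unit was read from the values, since exp(value) - 1 sums to 10000 in every cell. Whole UMIs were recovered for 100% of values within 0.01 UMI. Cell Ranger 2.1, Seurat 3.0 and mm10 are named in the submitters' processing notes, and no source used here names further steps. Symbols matched GENCODE M21 for 98.7% of 19024 genes.

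Fewer than 200 genes or a mitochondrial share above 10% removed 919 of 29496 cells. A doublet caller marked 82 more (0.278%), which is too few for a working caller, and the 28495 kept cells still hold doublets. Cells were clustered with scanpy 1.11.5 (2000 variable genes, 30 components, 15 neighbors, Leiden resolution 1). Clusters took a class name from marker lists, and 5 of 27 stayed unnamed, among them a low-depth cluster of 2706 cells with macrophage markers (28, 18, 136 and 1254 cells in deleted libraries 3, 4, 7 and 8, and 72, 76, 355 and 767 in wild-type libraries 1, 2, 5 and 6). Of the members, 7 were among the variable genes.

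A count test was planned only for files that hold raw counts. The deposited values are logarithms, so limma 3.58.1 was used (R 4.3.3, mean-dependent prior variance). No count test was run on the recovered UMIs. One value per library and class, log2(mean level + 0.1), was used where the library had at least 20 cells of the class, which leaves wild-type library 1 out of the dendritic-like and NK-like tests. Genes entered a class's test if 5% or more of its cells had a UMI in enough libraries to fill the smaller genotype. A pseudocount of this size understates changes of low genes. The fit was also run on simulated data that held no difference between the library sets. That run cannot show how the fit behaves where the sets differ. Atg7 and depth were compared by two-sided exact permutation tests over libraries, whose smallest p at 4 against 4 is 0.0286. Intervals and floors cover counting error only. The members, the marker lists and the list of other lysosomal genes were chosen with earlier results of these data known. All 29 members are accounted for; values in every library are given for Psap and Creg1 in neutrophil-like cells, for members that pass, for the 3 with the largest difference among those with groups apart in neutrophil-like and macrophage-like cells, and for family members whose highest class differs, and genes added after their values were seen are named as such. Some items are not reported here.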

Additional observations from a re-analysis of the deposited data

Results flagged for a closer look

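Psap in neutrophil-like cells of wild-type library 1, at 14.5 UMIs per 10000, stood apart from the other wild-type libraries, which ran from 7.70 to 8.02. Tpp1 in neutrophil-like cells of deleted library 7, at 2.54 UMIs per 10000, stood apart from the other deleted libraries, which ran from 0.910 to 1.01; it rests on 10 UMIs. These are 2 of 39 groups of 4 libraries looked at, and chance alone flags about 1 in 20 groups.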

How the results depend on the processing

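Leaving out 1 library at a time, 0 to 4 members passed in neutrophil-like cells, against 3 with all libraries. In each of the other classes 0 members passed in these fits. Of all genes, 0 to 19 passed in neutrophil-like cells in these fits, against 19 with all libraries. With cells of under 500 genes removed, 0 members passed there. With a term for the library set, 5 members passed in monocyte/macrophage-like cells and 2 in T-like cells, against 0 without it; the cause was not tested. The difference of Gusb reversed to -0.51 in C1q-high clusters and that of Tpp1 to -0.25 in C1q-low clusters, and the difference of Tpp1 between neutrophil-like and macrophage-like cells (0.10) ran from -0.11 without deleted library 7 to 0.28 without deleted library 8, with -0.015 without wild-type library 1, and none of these passed. Scarb2 in neutrophil-like cells did not pass with means of the deposited log values (log2 0.66, adjusted p = 0.0946) or summed UMIs (1.82, adjusted p = 0.0529), and Creg1 did not pass with one prior variance (adjusted p = 0.0639). Counts of all genes passing in neutrophil-like cells ran from 0 to 47 over the alternatives, against 19. Another pseudocount, median-ratio scaling, no detection filter, clustering at resolution 0.5 and clustering without lysosomal genes kept the count of 3 members in neutrophil-like cells. Depth limits the neutrophil-like values of deleted library 7, which gave 33966 UMIs in 39 cells. No paired analysis was possible because the groups share no replicate numbers.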
